A study of Homo sapiens with 32 samples.

Results

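The last exon-exon junction of an mRNA joins its penultimate exon to the exon that usually carries the stop codon and always carries the 3′ end. The search for these junctions started from 20162 protein-coding genes, each with its canonical transcript or, where none was marked, the transcript with the longest coding sequence. Of these, 16058 had at least 4 exons, and the last junction was kept where both exons beside it were at least 100 nt long, which left out 5304 genes. A junction shared by a pair of genes was counted once (162 cases). The final set held 10592 last junctions, out of 92024 junctions of all kinds that met the same length rule, of which 73313 were internal and 8119 were first junctions. Around each one, the 100 nt of mature mRNA on either side were read, with negative positions in the penultimate exon (position -1 is its last base) and positive positions in the last exon (position 1 is its first base).

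Tags came from iCLIP. UV light fixes proteins to the RNA they touch, the protein is immunoprecipitated, and reverse transcription of the attached RNA tends to stop at the crosslink, so the crosslinked base is taken from the most 5′ deletion of a read or, where it has none, as the base before its start. A tag is 1 deduplicated read at such a base. Stable lines that the labels call FlipIn HEK293T, derived from human embryonic kidney cells, expressed Alyref-FLAG or Chtop-FLAG (tetracycline at 10 ng/mL for 48 h), Nxf1-FLAG (5 ng/mL for 48 h) or an empty FLAG construct (Control, whose induction the labels do not give), and anti-FLAG antibodies were used for all 4 groups. Each group had 3 libraries. Neither labels nor methods say whether replicate libraries came from separate cultures, so the p-values below measure the spread between libraries only, which may be technical.

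Splicing leaves an exon junction complex (EJC) a short, fixed distance upstream of most exon-exon junctions, and the complex stays on the mRNA until the first ribosome removes it. Alyref and Chtop belong to TREX, the assembly that couples splicing to mRNA export, and both can hand the RNA to Nxf1, the receptor that carries it through the nuclear pore. The last junction is the last place where splicing can leave this mark. Beyond it lies an exon that no further junction follows, and the position of the stop codon relative to it decides whether a terminating ribosome finds an EJC downstream, the textbook trigger of nonsense-mediated decay.

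Library depth ran from 81307 to 631704 tags in Alyref, 47052 to 538844 in Chtop, 8134 to 179346 in Nxf1 and 7017 to 46628 in Control, and replicate 1 was the shallowest of each group. The last-junction windows took 1.16% ± 0.12 of all tags of an Alyref library and 1.23% ± 0.26 of a Chtop library (SD over 3 libraries, as for every ± below). Nxf1 libraries gave 0.961% ± 0.372 and Control libraries 0.55% ± 0.36. In tags, these windows held 908, 8141 and 6391 in the Alyref libraries and 443, 7063 and 6168 in the Chtop libraries. Far fewer were available for the other groups, with 99, 1349 and 958 in the Nxf1 libraries and 67, 203 and 96 in the Control libraries. Of the 10592 last junctions, 5965 had a tag in some library and 4627 had none. Alyref marked 4710 of them (44.5%), Chtop 4459 (42.1%), Nxf1 1603 (15.1%) and Control 331 (3.13%), and the order of the groups follows the depth of the libraries. Of internal junctions, 55.3% had a tag in Alyref, 47.4% in Chtop, 15.2% in Nxf1 and 3.81% in Control. RNA levels were not used here, so fewer molecules of an RNA and less binding per molecule cannot be told apart in a tag count.

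The windows of 3 last junctions show what the measurements consist of. They are the first in the order of mean level whose 200 bases are all coding sequence. Capitals mark bases with at least 1 tag in any of the 3 Alyref libraries on the first line, and in any of the 3 Chtop libraries on the second. The lines run 5′ to 3′ on the strand of the transcript, with T for U, and the junction lies after base 100. OGT, on the plus strand of the X chromosome, encodes the enzyme that adds O-linked N-acetylglucosamine to proteins, and its GRCh37 window joins chrX:70787867-70787966 and chrX:70793470-70793569.
OGT, Alyref tags: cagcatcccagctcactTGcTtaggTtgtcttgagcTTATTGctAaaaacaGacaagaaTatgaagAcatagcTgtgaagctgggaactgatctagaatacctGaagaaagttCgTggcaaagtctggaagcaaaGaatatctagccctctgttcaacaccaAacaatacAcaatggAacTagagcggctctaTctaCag
OGT, Chtop tags: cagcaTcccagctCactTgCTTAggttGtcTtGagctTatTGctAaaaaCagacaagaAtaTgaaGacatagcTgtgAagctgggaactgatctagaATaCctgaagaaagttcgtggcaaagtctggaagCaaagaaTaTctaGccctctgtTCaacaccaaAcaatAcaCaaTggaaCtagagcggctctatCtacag
ZNF711, also on the plus strand of the X chromosome, encodes a zinc finger transcription factor, and its window joins chrX:84525053-84525152 and chrX:84525657-84525756.
ZNF711, Alyref tags: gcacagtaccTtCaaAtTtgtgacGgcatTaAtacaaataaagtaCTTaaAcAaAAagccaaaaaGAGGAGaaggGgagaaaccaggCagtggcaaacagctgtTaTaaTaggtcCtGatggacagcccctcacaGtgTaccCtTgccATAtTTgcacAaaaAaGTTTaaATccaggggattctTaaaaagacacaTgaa
ZNF711, Chtop tags: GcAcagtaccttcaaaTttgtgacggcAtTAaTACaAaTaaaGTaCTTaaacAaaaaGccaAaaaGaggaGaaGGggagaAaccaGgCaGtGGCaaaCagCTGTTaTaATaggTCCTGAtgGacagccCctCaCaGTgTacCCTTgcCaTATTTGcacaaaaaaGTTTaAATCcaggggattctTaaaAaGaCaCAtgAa
OGA, on the minus strand of chromosome 10, encodes the enzyme that removes O-linked N-acetylglucosamine, and its window joins chr10:103547121-103547220 and chr10:103546245-103546344.
OGA, Alyref tags: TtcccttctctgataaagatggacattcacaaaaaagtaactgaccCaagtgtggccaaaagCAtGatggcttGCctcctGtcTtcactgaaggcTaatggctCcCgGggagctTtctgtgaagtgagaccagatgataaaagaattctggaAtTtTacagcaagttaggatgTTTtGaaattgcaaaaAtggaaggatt
OGA, Chtop tags: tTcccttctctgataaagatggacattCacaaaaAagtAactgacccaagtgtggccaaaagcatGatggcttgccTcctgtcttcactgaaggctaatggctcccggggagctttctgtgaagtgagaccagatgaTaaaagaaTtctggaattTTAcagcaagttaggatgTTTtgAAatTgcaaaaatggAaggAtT

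No single site dominated these windows. At OGT, 27 Alyref tags lay on 25 bases and 38 Chtop tags on 35 bases, and 7 bases carried both. At ZNF711, 56 Alyref tags lay on 46 bases and 107 Chtop tags on 78 bases, and 28 bases carried both. Of the 78 Chtop bases, 31 were upstream of the junction and 47 downstream, where the window held 15 and 26 U bases. At OGA, 21 Chtop tags lay on 20 bases, 6 upstream and 14 downstream, and 23 Alyref tags on 22 bases, 10 upstream and 12 downstream.

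Because single junctions hold few tags, positions were compared over all last junctions, with each junction given equal weight whatever its tag number. For Alyref, 53.7%, 54.0% and 54.9% of tags lay upstream of the last junction in the 3 libraries (mean 54.2% ± 0.65). Chtop gave 45.7%, 42.6% and 40.6% (42.9% ± 2.57). Values of 40.1%, 48.9% and 48.8% were seen for Nxf1 (45.9% ± 5.05), and of 44.7%, 51.6% and 47.1% for Control (47.8% ± 3.48). All 3 Alyref libraries lay above all 9 others. Chtop libraries lay below the Alyref libraries and overlapped those of Nxf1 and Control.

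The Alyref share was 9.78 points higher than that of the other factors, in 3 of 3 replicate numbers (two-sided exact permutation test over libraries, counting arrangements with an absolute difference at least as large, p = 0.0238, Benjamini-Hochberg adjusted p = 0.0893 over 15 tests). No comparison of position, density or base in this family of 15 had an adjusted p under 0.05, so each is reported with both values. Against Control it was 6.42 points higher, with p = 0.1, the smallest value that 3 against 3 libraries can give in this exact test. The Chtop share was 7.14 points lower than in the other factors (exact permutation p = 0.107, adjusted p = 0.23). That comparison turned on the Nxf1 library of 99 tags. Without Nxf1 replicate 1, the difference was -9.13 points (exact permutation p = 0.0179). The same library had 39 of its 99 tags upstream, 39.4% when each tag counts once, with a 95% exact binomial interval of 29.7% to 49.7% that covers counting error only. For Nxf1 the share differed by -2.64 points from the other factors (exact permutation p = 0.583) and by 0.27 without that library (exact permutation p = 0.964).

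**Figure D1:**
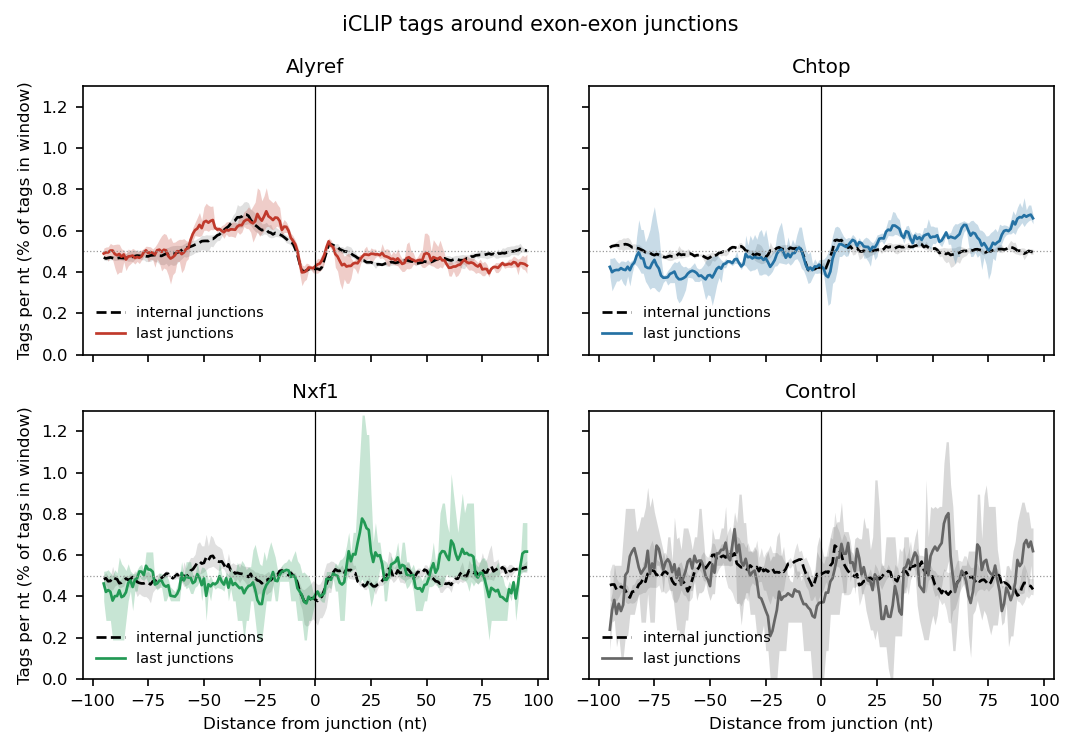
Tags per nucleotide, as a percentage of the tags within 100 nt of a junction, against the distance from the junction in nt (11-nt running mean), for last junctions (solid) and internal junctions (dashed), 1 panel per group. Lines are means of 3 libraries and bands run from the lowest to the highest library. The Alyref line for last junctions was highest at position -22 and the Chtop line at position 94, near the end of the positions shown. Nxf1 and Control bands are wide at these depths.

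Along the window the factors gave different shares by distance, described here in 25-nt segments with no test. For Alyref, the segment from -50 to -26 held 15.8% ± 0.73 of the tags and the segment from 76 to 100 held 10.8% ± 0.54. For Chtop the order was opposite, with 11.1% ± 0.37 from -50 to -26 and 15.5% ± 0.46 from 76 to 100. In the first 25 nt of the last exon the factors lay close together, at 12.2% ± 0.52 for Alyref and 12.8% ± 1.77 for Chtop. In single libraries the highest point of the smoothed profile fell at -22, -39 and -22 for Alyref and at 91, 92 and 95 for Chtop. The highest point was sought from -95 to 95. The mean Chtop profile was still 0.66% of tags per nt at 95, so the window cuts it off and its highest point does not mark a site. Alyref at internal junctions peaked at -32 in the group mean, 0.679% of tags per nt against 0.694% at last junctions.

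Right at the junction, tags were fewer on the last bases before it than on the first bases after it in every group. Alyref had 215 tags on the last 5 bases of the penultimate exon and 430 on the first 5 bases of the last exon, while the last 5 bases of the intron held 347. For Chtop these numbers were 174, 393 and 279, for Nxf1 39, 59 and 62, and for Control 7, 9 and 3. When a read begins at the first base of the last exon, the base before it lies in the intron on the genome although it lies in the penultimate exon on spliced RNA. When tags on the last 5 intron bases were counted at the last 5 exon bases instead, Alyref lay 10.1 points above the other factors in upstream share (exact permutation p = 0.0119, the smallest that 84 arrangements allow).

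The stretch from -75 to -24 was measured on its own. It was chosen with earlier results of these data known. It is the region where the paper reported Alyref enrichment upstream of internal junctions in these same libraries. The comparisons of Alyref there are therefore not independent of that choice. Alyref libraries placed 29.7%, 29.6% and 30.5% of tags there (29.9% ± 0.50) and Chtop libraries 21.1%, 22.5% and 20.6% (21.4% ± 0.98). Nxf1 took 21.9%, 25.4% and 24.3% (23.8% ± 1.78). Control took 31.1%, 28.0% and 27.0% (28.7% ± 2.11). Control lay near Alyref and above both Chtop and Nxf1. The Alyref share was 7.29 points above that of the other factors (exact permutation p = 0.0119, adjusted p = 0.0893, in 3 of 3 replicate numbers), and that of Chtop was 5.46 points below (exact permutation p = 0.0357, adjusted p = 0.0893, 3 of 3). Leaving out any of the 9 factor libraries kept the Alyref difference between 6.89 and 7.84 points, with p of at most 0.0357. The Chtop difference stayed between -6.46 and -4.74, but its exact p was above 0.05 in 8 of the 9 cases, up to 0.179, and 0.0357 without Nxf1 replicate 1. Against Control, Alyref differed by 1.22 points (exact permutation p = 0.4), and by -1.18 points without junctions near another splice site. Chtop was 7.29 points and Nxf1 4.87 points below Control (exact permutation p = 0.1 for each, the smallest possible).

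**Figure D2:**
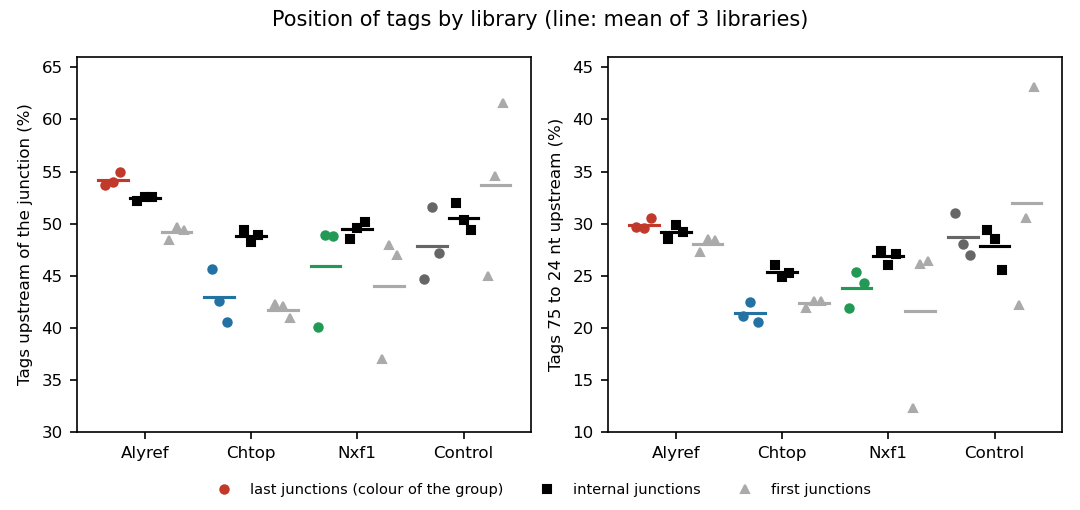
Percentage of tags upstream of the junction (left) and between -75 and -24 (right), junctions weighted equally. Points are libraries and lines are means of 3, for last (circles), internal (squares) and first (triangles) junctions of each group. At last junctions the Alyref circles lie at 53.7% to 54.9% and the Chtop circles at 40.6% to 45.7%, on opposite sides of their own internal values.

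Last and internal junctions were then compared within each library. Where an exon between 2 junctions is under 200 nt, the windows of these junctions can overlap on it, and a tag in the overlap counts at both. A last exon has no junction after it. At internal junctions, the upstream share was 52.4% ± 0.25 in Alyref and 48.8% ± 0.55 in Chtop. It was 49.4% ± 0.83 in Nxf1 and 50.6% ± 1.29 in Control. Last minus internal, the upstream share was 1.55, 1.43 and 2.43 points in the Alyref libraries and -3.67, -5.67 and -8.33 points in the Chtop libraries, so each Alyref library was higher at last junctions and each Chtop library lower. The Nxf1 libraries differed by -8.45, -0.65 and -1.40 points and the Control libraries by -7.29, 1.25 and -2.30 points. Over the 9 factor libraries the mean difference was -2.53 points (two-sided exact sign-flip permutation test, p = 0.125, negative in 6 of 9). A test of the difference between factors, added after these values were seen, gave 6.50 points for Alyref against the others (exact permutation p = 0.0238, adjusted p = 0.143 over 12 tests). In the stretch from -75 to -24, last minus internal was 0.72 ± 0.87 points in Alyref and -3.96 ± 1.36 in Chtop. Nxf1 gave -3.02 ± 2.41 and Control 0.87 ± 1.21 points (9 factor libraries, exact sign-flip permutation p = 0.0547, lower in 7 of 9). The p was 0.0391 without Alyref replicate 1, with a mean of -2.49 points, and also without Alyref replicate 3, with -2.51 points (exact permutation). Alyref replicates 1 and 3 were the libraries above 0 (1.13 and 1.32 points), so leaving either out removes a value that went against the mean. Both sign-flip tests pool factors whose means differed in sign, so they cannot show a shift shared by the factors.

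At first junctions, at the other end of the transcript, 49.2% ± 0.65 of Alyref tags and 41.7% ± 0.74 of Chtop tags lay upstream. The base composition differed too, since at first junctions 42.9% of the window's U bases lie upstream, against 49.3% at last and 49.2% at internal junctions. Counting back from the 3′ end, the upstream share of Chtop was 42.9% ± 2.57 at the last junction, 46.4% ± 1.18 at the one before it, 49.3% ± 1.86 at the second before it and 45.2% ± 4.33 at the third before it. For Alyref these values were 54.2% ± 0.65, 52.8% ± 1.50, 53.2% ± 1.07 and 52.7% ± 0.74. No test was made along this series.

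Last exons are long (median 1427.5 nt) and penultimate exons short (median 147 nt), so the length of the exon after the junction was matched. Last junctions whose last exon was at least 500 nt long (8534) had 55.0% ± 0.51 of Alyref tags and 42.6% ± 2.11 of Chtop tags upstream. Internal junctions followed by an exon of at least 500 nt (1945) had 53.4% ± 1.29 of Alyref tags upstream. Their Chtop share, between 43.2% and 46.9% in single libraries, overlapped that at last junctions. At internal junctions followed by an exon under 150 nt, the shares were 50.6% ± 0.48 and 50.1% ± 0.41, so the factors stood closer together there. In internal exons under 200 nt, part of the downstream window can also be the upstream window of the next junction. The part of this overlap in the shares was not tested. At last junctions of that class (171) the Alyref share was 56.2% ± 5.55. In the classes between, the Alyref share was lower at last than at internal junctions. It was 49.2% ± 2.54 at the 199 last junctions with 150 to under 200 nt, against 54.8% ± 0.15 at internal ones, and 50.1% ± 2.09 at the 1688 with 200 to under 500 nt, against 53.9% ± 0.15, and in both classes the 3 libraries of the 2 kinds of junction did not overlap. The part of exon length in the difference between last and internal junctions was not tested further.

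The number of tags per window was compared between last and internal junctions of the same 9480 transcripts, so that each transcript stands for its own RNA level. In Alyref libraries the last window held fewer tags than the mean internal window, with log2 ratios of -0.40, -0.46 and -0.45 (mean -0.43 ± 0.03). Chtop gave 0.01, 0.13 and 0.20 (0.11 ± 0.10). The ratios were -0.03, 0.01 and -0.06 in Nxf1 (-0.03 ± 0.03), and in Control they were -0.47, -0.20 and 0.27 (-0.13 ± 0.37). The 3 Alyref libraries were the lowest of the 9 factor libraries, and the Control libraries spanned more than the range of all factor libraries. The log2 ratio of Alyref was 0.48 below that of the other factors (difference -0.48, exact permutation p = 0.0119, adjusted p = 0.0893, 3 of 3), and that of Chtop was 0.34 above (exact permutation p = 0.0357, adjusted p = 0.0893, 3 of 3). Leaving out 1 of the 9 factor libraries put the exact permutation p for Chtop above 0.05 in 8 of 9 cases, all but Nxf1 replicate 2, and as high as 0.179, with differences of 0.30 to 0.40.

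**Figure D3:**
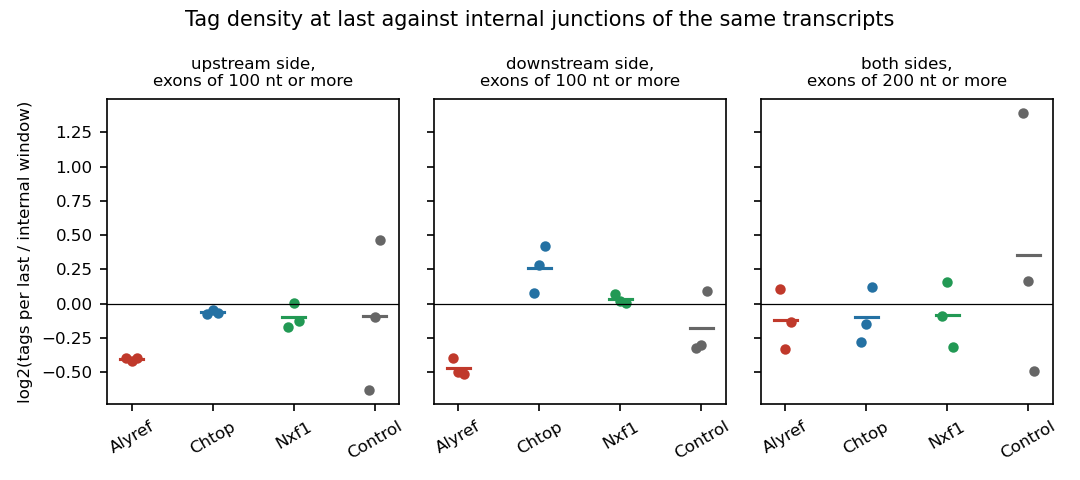
log2 of tags per last window over tags per mean internal window of the same transcripts, for the upstream side (left) and downstream side (middle) of the junction, and for both sides where all exons were at least 200 nt long (right). Points are libraries, lines are means of 3 and the horizontal line marks equal density. Alyref points lie below 0 on both sides, at means of -0.40 and -0.47, and the groups overlap in the right panel.

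Each side of the junction was also taken alone, with no test. In the penultimate exon, the log2 ratio was -0.40 ± 0.01 in Alyref, -0.06 ± 0.01 in Chtop and -0.10 ± 0.09 in Nxf1. On the side of the last exon, Alyref gave -0.47 ± 0.07, Chtop 0.26 ± 0.17 and Nxf1 0.03 ± 0.04. All 3 Chtop libraries were above 0 on the side of the last exon (0.08, 0.28 and 0.42) and below 0 on the other, while all 3 Alyref libraries were below 0 on both. Measured against the junction just before the last, in 7638 transcripts, the log2 ratio was -0.10 ± 0.06 for Alyref and 0.23 ± 0.11 for Chtop. Against the second junction before the last, in 5113 transcripts, it was -0.21 ± 0.09 and 0.20 ± 0.17, and against the third, in 4460 transcripts, -0.25 ± 0.09 and 0.33 ± 0.12. These sets hold different transcripts, so their values are given side by side and were not compared.

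The density difference was lost where short exons were left out. With all exons at least 200 nt long, which 764 transcripts met at both a last and an internal junction, the log2 ratio came to -0.12 ± 0.22 in Alyref, -0.10 ± 0.20 in Chtop and -0.08 ± 0.24 in Nxf1, on 807, 951 and 118 tags at last junctions. The differences of Alyref and Chtop from the other factors were then -0.03 (exact permutation p = 0.726) and 0.00016 (exact permutation p = 1). The upstream share did not depend on this limit in the same way. On exons of at least 200 nt it was 10.4 points higher for Alyref than for the other factors (exact permutation p = 0.0119).

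Last introns held fewer tags than the spliced windows. With last introns of at least 400 nt, the spliced windows held more tags than the 100 nt of intron beside each splice site, with log2 ratios of 2.51, 2.76 and 2.53 for Alyref (2.60 ± 0.14) and 3.15, 2.90 and 2.99 for Chtop (3.01 ± 0.13). Nxf1 libraries gave 3.77, 2.39 and 1.79 and Control libraries 3.32, 0.69 and 1.35, so the replicates of these groups spread more than the factors differed. No comparison between factors or with Control had an exact p under 0.05 here. The lowest was 0.4 against Control and 0.417 between factors. Without Nxf1 replicate 1, the Nxf1 log2 ratio less that of Alyref and Chtop was -0.72 (exact permutation p = 0.0357). It was 0.27 without Nxf1 replicate 3.

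UV light crosslinks protein to uracil more readily than to the other bases. At last junctions U made up 21.9% of window bases. Of the tags, 43.8%, 45.9% and 44.5% lay on a U for Alyref (44.7% ± 1.08) and 43.1%, 48.5% and 49.8% for Chtop (47.2% ± 3.55). Nxf1 had 29.3%, 42.5% and 44.1% (38.6% ± 8.11). Control had 35.8%, 38.9% and 40.6% (38.5% ± 2.43). A was the least used relative to its abundance, at 15.2% ± 1.09 of Alyref tags and 15.6% ± 1.19 of Chtop tags against 26.4% of window bases. Alyref and Chtop lay 6.28 and 8.69 points above Control in U (exact permutation p = 0.1 for each, the smallest possible). The Nxf1 share less that of Alyref and Chtop was -7.34 points (exact permutation p = 0.0357, adjusted p = 0.0893). Without Nxf1 replicate 1 this came to -2.68 points (exact permutation p = 0.179). The exact permutation p was 0.107 without Nxf1 replicate 2, and 0.0536 when any 1 of replicates 2 and 3 of Alyref or of Chtop was left out. U bases were split almost evenly between the sides of the last junction (49.3% upstream).

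**Figure D4:**
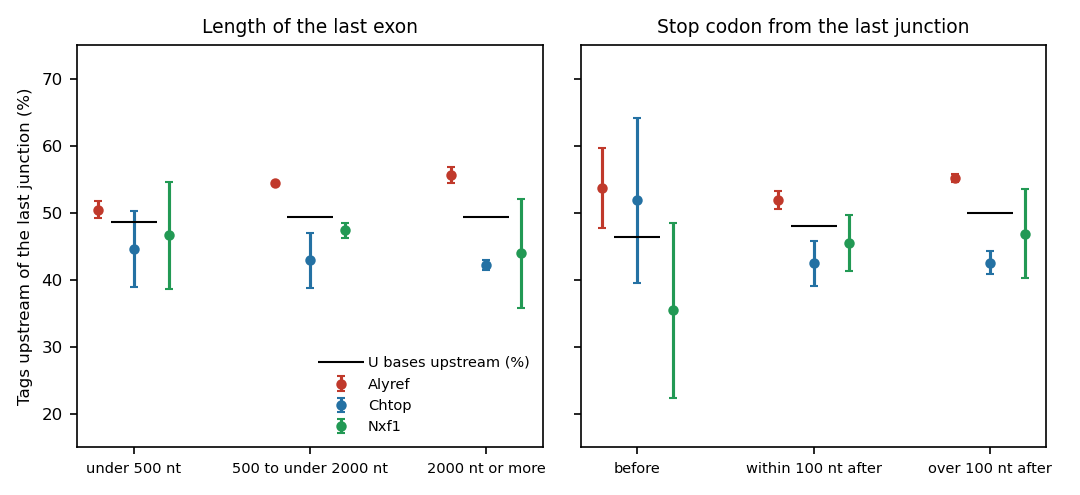
Percentage of tags upstream of the last junction by the length of the last exon (left) and by the place of the stop codon relative to the junction (right). Points are means of 3 libraries with SD bars for Alyref, Chtop and Nxf1, and black dashes give the percentage of the window's U bases that lie upstream. Alyref lies above Chtop in all 3 length classes, at 50.5% against 44.6% for the shortest and 55.7% against 42.2% for the longest last exons.

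Among last junctions, the mean upstream share of Alyref was above that of Chtop in every length class of the last exon, although single libraries overlapped in the shortest class. With last exons under 500 nt (2058 junctions), 50.5% ± 1.31 of Alyref tags and 44.6% ± 5.72 of Chtop tags lay upstream. From 500 to under 2000 nt (4509) the shares were 54.4% ± 0.22 and 42.9% ± 4.09, and with 2000 nt or more (4025) they were 55.7% ± 1.14 and 42.2% ± 0.70. The length of the last intron went with the Alyref share in the same direction. It was 52.3% ± 0.45 with introns under 400 nt, 53.6% ± 1.42 from 400 to under 2000 nt and 56.5% ± 0.27 with 2000 nt or more, while Chtop stayed between 42.1% and 43.8%. By number of junctions in the transcript the shares were near each other, with Alyref at 54.2%, 54.8% and 53.8% and Chtop at 43.8%, 42.4% and 42.7% for 3 to 6, 7 to 12 and 13 or more junctions. These classes are descriptions and were not tested.

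The stop codon lay over 100 nt after the last junction in 7442 transcripts, within 100 nt after it in 2576 and before it in 574, of which 171 had it more than 50 nt before. Where it lay over 100 nt after, 55.2% ± 0.59 of Alyref tags were upstream of the junction, and where it lay within 100 nt after, 51.9% ± 1.31 were. The difference was -4.35, -2.16 and -3.39 points in the 3 Alyref libraries, against -0.10 ± 1.79 for Chtop and -1.34 ± 2.46 for Nxf1. Over the 9 factor libraries it was -1.58 points, negative in 7 of 9 (exact sign-flip permutation p = 0.0625, adjusted p = 0.125). Without Chtop replicate 1 it was -2.02 and without Nxf1 replicate 1 -1.97 points (exact sign-flip permutation p = 0.0313 each). These were the libraries above 0 (1.95 and 1.51 points), so leaving either out removes a value that went against the mean. The mean over the 9 factor libraries was -2.60 points (exact sign-flip permutation p = 0.00781) where the 1065 junctions with another annotated splice site in their windows were left out. It was -8.98 (exact sign-flip permutation p = 0.0313) when every exon had to reach 200 nt. That subset held 2003 last junctions over all stop codon classes. In this mean, a library with 99 tags over all last junctions (Nxf1 replicate 1) weighs as much as any other, so its size is uncertain. U bases were 48.0% upstream in the nearer class and 50.0% in the farther one, and the part of this in the result was not tested. Where the stop codon lay before the last junction, the junction is in the 3′ UTR, and the tags were few (597 in Alyref, 523 in Chtop, 115 in Nxf1 and 13 in Control libraries). Their upstream shares, 53.7% ± 6.01 for Alyref and 51.9% ± 12.3 for Chtop, could not be told from those of the other classes (exact sign-flip permutation p = 0.828).

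At the level of single junctions, the 10 last junctions with the highest mean level over the groups, in CPM (tags scaled to the total tags of the library), were those of OGT, ZNF711, DDX39B, OGA, RPL35A, CCT8, SFPQ, RPL10A, RPS4X and PAXBP1. In this mean, 1 tag of the shallowest Control library weighs 142.5 CPM and 1 tag of Alyref replicate 2 weighs 1.58 CPM. RPL35A, a protein of the large ribosomal subunit, entered with 2 tags in that Control library and 11 tags in all. OGA and OGT each had 2 tags in the shallowest Nxf1 library (245.9 CPM), and DDX39B, RPS4X and PAXBP1 each had 1 there (122.9 CPM). SFPQ and CCT8 each had 1 tag there and 1 in the shallowest Control library, and RPL10A had 1 in that Control library. Of the 10, only ZNF711 had no tag in either library, so the order rests in large part on these few tags. OGA and PAXBP1 had no Control tag.

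**Figure D5:**
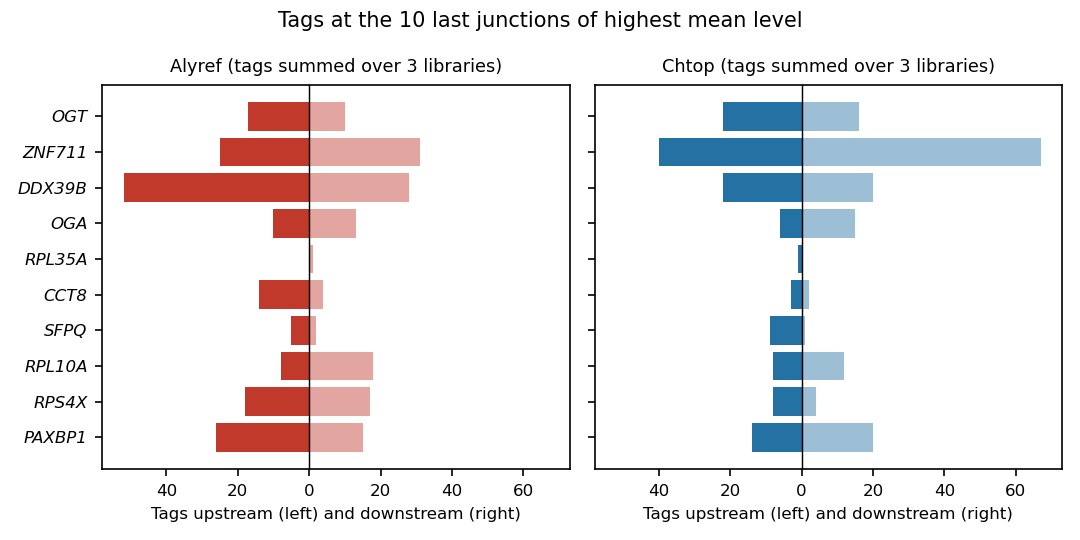
Tags upstream (left of 0, dark) and downstream (right of 0, pale) of the last junction for the 10 last junctions of highest mean level, summed over the 3 Alyref libraries (left panel) and the 3 Chtop libraries (right panel). DDX39B has 52 of 80 Alyref tags upstream and ZNF711 has 67 of 107 Chtop tags downstream.

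DDX39B, the RNA helicase of TREX that helps bring Alyref to mRNA, had the most Alyref tags of any last junction. Its Alyref libraries held 7, 46 and 27 tags, its Chtop libraries 1, 25 and 16, its Nxf1 libraries 1, 1 and 0 and its Control libraries 0, 2 and 0. Of these, 52 of 80 Alyref tags and 22 of 42 Chtop tags lay upstream. The junction joins exons 10 and 11 (chromosome 6, minus strand, GRCh37 positions 31498556 and 31498227), and the stop codon follows it by 17 nt. ZNF711 had the most Chtop tags, with 2, 45 and 60 in the Chtop libraries, 3, 25 and 28 in the Alyref libraries, 0, 5 and 3 for Nxf1 and 0, 2 and 0 for Control. Of its tags, 40 of 107 for Chtop and 25 of 56 for Alyref lay upstream. PAXBP1, a nuclear protein that binds PAX transcription factors, had 1, 17 and 23 Alyref tags and 1, 18 and 15 Chtop tags, of which 26 of 41 and 14 of 34 lay upstream. CCT8, a subunit of the chaperonin that folds actin and tubulin, had 14 of 18 Alyref tags and 3 of 5 Chtop tags upstream. SFPQ, a nuclear RNA-binding protein of paraspeckles, had 5 of 7 and 9 of 10. RPS4X and RPL10A, ribosomal proteins, had 18 of 35 and 8 of 26 Alyref tags upstream. Ribosomal protein genes have processed pseudogenes, and with only uniquely mapped reads kept, their counts are uncertain.

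Tags per window were tested for all junctions together with edgeR's quasi-likelihood test, with the total tags of each library as its size and Benjamini-Hochberg adjustment over 3083 windows, of which 189 were last junctions. A window entered through the libraries where it is high, so these counts describe the better covered junctions and not the whole set. Between Alyref and Chtop, 3.08% of all windows tested were higher in Alyref and 0.357% higher in Chtop. Among the 189 last junctions, 0 were higher in Alyref and 2 were higher in Chtop, YBX3 and ZNF711. At an unadjusted p under 0.05 in edgeR, 6 last junctions and 366 of the 3083 windows (11.9%) were higher in Alyref, and 12 and 153 (4.96%) in Chtop. DESeq2 called 0 last junctions and 2 windows (0.0649%) in either direction. Between Alyref and Nxf1, 3.73% of windows were higher in Alyref and 0.0649% higher in Nxf1. The last junctions called were those of SF3B1, LARS1 and DDX39B, higher in Alyref, and LSM4, higher in Nxf1. Between Chtop and Nxf1, 5.25% of windows were higher in Chtop and 0.941% higher in Nxf1, with 10 and 3 last junctions called. Leaving out 1 library left 0 to 2, 0 to 5 and 0 to 4 last junctions called in these 3 contrasts, so the calls turn on single libraries. For Alyref against Chtop, 0 were called without Alyref replicate 2. For Alyref against Nxf1, 0 were called without Alyref replicate 2, Nxf1 replicate 2 or Nxf1 replicate 3, and for Chtop against Nxf1 0 without Nxf1 replicate 2 or 3. With edgeR's TMM scaling, with the replicate number as a block or with no filter, 0 last junctions were called for Chtop against Nxf1. The share of all windows called was not recorded for these fits or for those without 1 library. DESeq2 called 3 of 32, beside 75 of the 394 windows (19%) to which it gave an adjusted p. Against Control, 0 (0%) of the 3083 windows were called for any factor, while among last junctions an unadjusted p under 0.05 was reached by 7 with Alyref, 6 with Chtop and 4 with Nxf1, beside 82 (2.66%), 98 (3.18%) and 70 (2.27%) of all windows. DESeq2 called 9 of 48 last junctions for Alyref, beside 178 of the 573 windows to which it gave an adjusted p (31.1%). For Chtop it called 12 of 32, beside 143 of 394 (36.3%), and for Nxf1 0 of 189, beside 0 of 3083. The median log2 difference of last junctions was -0.19 for Alyref against Chtop, beside 0.09 over all windows tested. For Alyref against Nxf1 it was 1.14, beside 1.9, and for Chtop against Nxf1 1.44, beside 1.83. With this scaling the typical window tested was thus higher than in Nxf1, and the calls against Nxf1 include that general difference.

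YBX3, a cold-shock RNA-binding protein, had the lowest adjusted p among last junctions between Alyref and Chtop. Its last junction lies on chromosome 12, minus strand, between GRCh37 positions 10853853 and 10852253. Its Chtop libraries held 1, 14 and 5 tags and its Alyref libraries 0, 1 and 2, which do not overlap in CPM. Chtop was 8.64-fold higher in pooled tags (95% exact counting interval 2.56 to 45.4, edgeR adjusted p = 0.00602), and all 3 Alyref tags lay upstream while 8 of 20 Chtop tags did. Its stop codon lies 34 nt before the last junction (offset -34). ZNF711, with its tags as given above, was 2.48-fold higher in Chtop (1.78 to 3.49, edgeR adjusted p = 0.0103), with libraries that overlapped. LARS1, leucyl-tRNA synthetase, had 1, 19 and 9 Alyref tags, 1, 8 and 12 Chtop tags and 0 in each Nxf1 library, and edgeR called it in both contrasts with Nxf1. SF3B1, a subunit of the U2 snRNP that recognises the branch point, had 3, 20 and 8 Alyref tags and 0 in Nxf1 (edgeR adjusted p = 0.0442). With 3 tags over the Nxf1 group taken as the floor, SF3B1 was at least 2.41-fold higher in Alyref. For Alyref against Nxf1 the median log2 difference was 1.14 at last junctions tested and 1.9 over all windows tested. LARS1 and SF3B1 entered the test through the libraries where they are high, so these calls give no separate support for a difference from Nxf1. LSM4, a subunit of the ring that binds U6 snRNA, had 1, 2 and 7 Nxf1 tags against 1, 0 and 2 Alyref tags, 14.3-fold higher in Nxf1 (3.68 to 80.9, edgeR adjusted p = 0.0215). Position 17 alone held 4 of the 10 Nxf1 tags, 4 of the 5 Chtop tags, 2 of the 3 Alyref tags and the single Control tag.

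Of the 10 last junctions higher in Chtop than in Nxf1, the non-overlapping ones with the largest fitted changes were SLC25A36, BTAF1, LARS1, PCNT and SCML1. SLC25A36, a mitochondrial nucleotide carrier, had 1, 11 and 12 Chtop tags. BTAF1, which removes the TATA-binding protein from DNA, had 2, 10 and 11. PCNT, the centrosome scaffold pericentrin, had 1, 9 and 11. All 3 had 0 Nxf1 tags, so they entered the test through the libraries of other groups. SCML1, a Polycomb-group protein, had 1, 17 and 27 Chtop tags against 0, 2 and 0 for Nxf1, and also 4, 29 and 18 Alyref tags. DDX17 and ZNF711 did not overlap either, and WSB1, TIAL1 and PIEZO1 did. The 3 higher in Nxf1 than in Chtop were RPL36, RPS6 and RACK1, which encode ribosomal proteins and a ribosome-bound scaffold, on 12, 10 and 11 Nxf1 tags with libraries that overlapped those of Chtop.

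Lists of genes around export and splicing were read at their last junctions. Of TREX and export factors, 12 had an eligible last junction, 11 had a tag and 3 were tested, with DDX39B higher in Alyref than in Nxf1, beside 3.73% of all windows, and no other call. Its Nxf1 libraries overlapped those of Alyref in CPM. Alyref placed 85 of 139 tags of this list upstream (61.2%) and Chtop 44 of 84 (52.4%). DDX39B alone held 80 of these Alyref tags (52 upstream) and 42 of these Chtop tags (22 upstream). Over all last junctions, with each tag counted once, 54.0%, 54.3% and 55.0% lay upstream in the Alyref libraries. In the Chtop libraries 44.2%, 42.0% and 40.7% did. DDX39A, the paralogue of DDX39B, had 13 Alyref tags (12 upstream) and 9 Chtop tags (6 upstream), and reads shared by these similar genes were not kept. Of EJC and decay factors, 15 had an eligible last junction, 14 had a tag and 0 were tested. Their Alyref tags were 37 of 54 upstream (68.5%) and their Chtop tags 16 of 31 (51.6%). In Alyref much of this was PNN, an EJC-associated splicing factor, with 14 of 15 upstream, and RNPS1 had 2 of 5. Of SR proteins, 5 were eligible and 2 tested, with no call. Their tags were 31 of 53 upstream in Alyref (58.5%) and 16 of 42 in Chtop (38.1%). Among them SRSF1 had 17 of 18 Alyref tags but 7 of 14 Chtop tags upstream. SRSF9 had 4 of 4 Alyref tags and 1 of 7 Chtop tags upstream. Less than an even share of the Alyref tags of the remaining SR members lay upstream, so SRSF1 and SRSF9 do not stand for the list. These single-gene splits rest on few tags and were not tested.

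Of hnRNP proteins, 6 were eligible and 1 tested, with no call. Less than an even share of their tags lay upstream in both factors, with 17 of 40 Alyref tags (42.5%) and 7 of 26 Chtop tags (26.9%). HNRNPK had 2 of 10 and 3 of 10 upstream, and HNRNPUL1 2 of 5 and 2 of 2. Among the remaining members, less than an even share lay upstream in Chtop but not in Alyref. Of glycolytic enzymes, 12 were eligible and 5 tested, with no call, and their tags split as 44 of 79 upstream for Alyref and 26 of 61 for Chtop. GAPDH had 4 of 7 and 6 of 12 upstream, and PFKL, which phosphorylates fructose 6-phosphate, 3 of 5 and 3 of 11. Of ribosomal proteins, 53 were eligible, 47 had a tag and 10 were tested, with 2 calls, RPL36 and RPS6, higher in Nxf1 than in Chtop, beside 0.941% of all windows, and neither was called with TMM, with the replicate block or with no filter. They took 2.13% of the last-junction tags of Alyref, 1.16% of those of Chtop, 6.11% of those of Nxf1 and 5.46% of those of Control, on 147 and 20 tags in the last 2 groups.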

How the data were processed

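Crosslinked bases were measured by iCLIP in 12 libraries, 3 each of Alyref, Chtop, Nxf1 and Control. The deposited values are counts of deduplicated reads per base and strand. To make them, the authors removed phiX reads with Bowtie 1.1.2, read the random barcodes (UMI-tools 0.5.3), used Reaper to trim and split the reads by sample, aligned to hg19 with STAR 2.4.2a, kept uniquely mapped reads, merged lanes and collapsed duplicates by barcode. Files that pool the replicates were not used. Unique mapping removes tags of genes with near-identical copies, so their counts are uncertain.

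Tags were placed by distance from the junctions of 1 transcript per gene (GRCh37). Of the last introns, 65 were annotated as shorter than 30 nt and were kept. Shares weighted each junction equally and densities summed tags. Libraries were compared by two-sided exact permutation tests, with Benjamini-Hochberg adjustment within families of 15, 15 and 4 tests, and of 12 and 12 for tests of whether the within-library differences between junction or stop codon classes differed between factors or from Control, which were added after the values were seen. The smallest p is 0.0119 for 3 against 6 libraries and 0.1 for 3 against 3. Tags per window were tested with edgeR 4.0.16 (quasi-likelihood, all libraries in 1 fit, R 4.3.3), and DESeq2 1.42.0 was an alternative. TMM and the default filter had been intended, but of 57012 windows with a tag the default filter passed 4, and TMM factors ran from 0.341 to 7.43, so windows passed at a minimum count of 1 and libraries were scaled to their total tags.

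Named junctions were the 10 of highest mean level, up to 5 per contrast and direction with the largest fitted change among called junctions whose libraries did not overlap, and the 2 of highest level in each gene list. DDX39B, ZNF711, RPS6, RACK1, RPL36, DDX17, WSB1, TIAL1 and PIEZO1 were also named as called junctions after their values were seen. The members, the gene lists and the stretch from -75 to -24 were chosen with earlier results of these data known. Alternatives were the weighting of tags, longer exons, other splice sites, short introns, intron-end tags, scaling, filter, the replicate number as a block, and leaving out each library.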

Additional observations from a re-analysis of the deposited data

Results flagged for a closer look

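The difference between last and internal junctions was compared between the factors. In upstream share, last minus internal was 1.80 points on average for Alyref and -4.70 points for the other factors, a difference of 6.50 points (exact permutation test over libraries, p = 0.0238, adjusted p = 0.143 over 12 tests). In the stretch from -75 to -24 it was 0.72 points for Alyref and -3.49 for the other factors, a difference of 4.21 points (exact permutation p = 0.0238, adjusted p = 0.143). Both tests were chosen after the values were seen, and neither passed the adjustment. Neither matched the length of the exon after the junction. With 150 to under 200 nt, the Alyref upstream share was 49.2% at last and 54.8% at internal junctions. With 200 to under 500 nt it was 50.1% and 53.9%. Under 150 nt it was 56.2% and 50.6%, and with 500 nt or more 55.0% and 53.4%.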

How the results depend on the processing

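Of 519 values recomputed for 40 results under 23 settings, 434 kept their direction and side of the threshold or, for counts, stayed within 1.5 times. The higher upstream share, the higher share from -75 to -24 and the lower density of Alyref against the other factors kept an exact p under 0.05 in all 9 fits that left out 1 library, at 8.91 to 10.7 points, 6.89 to 7.84 points and -0.50 to -0.45. The depth of Nxf1 and Control, down to 99 and 67 tags in a library, limits every comparison with them.

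With each tag weighted equally, last minus internal from -75 to -24 was -2.21 points. With exons of at least 200 nt, the share from -75 to -24 of Chtop against the other factors was -3.68, density was -0.029 for Alyref and 0.00016 for Chtop against the other factors and -0.46 for Chtop and -0.44 for Nxf1 against Control, Nxf1 against the other factors was 0.21 in exon to intron density and -5.08 in uracil, and the stop codon difference (within 100 nt minus over 100 nt) was -8.98. Exon to intron density against Control had no value there, for want of Control tags. Without junctions near another splice site, the share from -75 to -24 was -4.84 for Chtop against the other factors and -1.18 for Alyref against Control, uracil of Nxf1 was -7.96 against the other factors and -1.27 against Control, and the stop codon difference was -2.60. The cause of these changes was not tested.

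With the replicate block, which permutes labels within a replicate number, upstream share of Alyref (9.78), the share from -75 to -24 of Chtop (-5.46) and density of Chtop (0.34) against the other factors kept their values and had an exact p of 0.0741. In edgeR the replicate block called 1 last junction for Alyref against Chtop, 1 for Alyref against Nxf1 and 0 for Chtop against Nxf1, where the fit without it called 2, 4 and 13. Deviations of same-numbered libraries correlated at -0.0488 to 0.0578. By their titles, same-numbered libraries also shared sequencing lanes, but replicates 1 and 3 shared HiSeq lanes with each other too. The replicate number therefore does not stand for the lane. Single windows hold few tags, so these correlations cannot decide whether libraries of a number share a batch. TMM gave 2 for Alyref against Nxf1, 0 for Chtop against Nxf1 and 1 for Chtop against Control. No filter gave 1, 0 and 0 for the contrasts between factors. DESeq2 gave 0, 2 and 3 for them, and 9 for Alyref and 12 for Chtop against Control, where edgeR called 0. The share of all windows called was not recorded for TMM, no filter, the replicate block or the fits without 1 library. Nor was it recorded for DESeq2 between Alyref and Nxf1. These counts therefore show only how the calls depend on the setting.

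Leaving out 1 library gave these ranges against the other factors. Upstream share ran from -9.13 to -5.95 for Chtop and -4.25 to 0.27 for Nxf1, the share from -75 to -24 from -6.46 to -4.74 for Chtop, and density from 0.30 to 0.40 for Chtop. Exon to intron density of Nxf1 ran from -0.72 to 0.27, and uracil from -0.86 to 3.25 for Alyref and -10.1 to -2.68 for Nxf1. Against Control, Nxf1 ran from -3.41 to 1.05 in upstream share, -0.063 to 0.31 in density and -2.57 to 4.81 in uracil. Last minus internal from -75 to -24 ran from -2.51 to -1.66, and the stop codon differences from -2.02 to -1.23 (within 100 nt) and -4.02 to 1.95 (before the junction). Called last junctions numbered 0 to 2 for Alyref against Chtop, 0 to 5 for Alyref against Nxf1 and 0 to 4 for Chtop against Nxf1.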
